A study of Oryza sativa Indica Group with 45 samples.

Results

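Mature rice leaf was compared with young rice leaf on 18 of the series' 45 arrays, chosen by the tissue and stage in the sample titles. The 9 young leaf arrays came from seedlings aged 14 days and the 9 mature leaf arrays from plants aged 40 to 60 days. Each stage was sampled in 3 Indica genotypes with 3 arrays apiece: the hybrid MRP5401, its female parent PMS80 (the B line) and its male parent PR319 (the R line). No treatment or transgene separated the groups, so the same genotypes stand on both sides of the comparison. The other 27 arrays hold young root and mature root at the same ages and flag leaf at 90 days.

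Labelled total RNA was hybridised to the Affymetrix Rice Genome Array, and each value below is a log2 intensity of 1 probe set. The labels describe 1 way of growing plants, hydroponic seedlings separated into shoots and roots. The young leaf RNA may therefore hold stem base and shoot apex as well as blades, and the labels do not say how the older plants were grown or at what time of day any leaf was harvested. Titles call the replicates biological, so the p-values measure the spread between these samples.

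A young grass leaf imports sugar while its base still divides and expands, and its cell walls are still being built. A mature leaf exports sucrose made by photosynthesis, stores starch in its chloroplasts by day, and loads metals and nitrogen into the phloem for younger organs. Zinc, iron and copper are moved by families of membrane transporters, and grasses also make nicotianamine and mugineic acids, small molecules that bind iron and zinc. Phytochromes and MADS-box regulators carry the change from the vegetative phase towards flowering.

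Leaf photosynthesis markers were high on all 18 arrays, while root and apex markers were mixed. The summed linear intensity of 9 leaf photosynthesis markers was 183600 to 241700 on young arrays and 237300 to 264300 on mature arrays, and no member lay under 5 in either stage. Of these 9, 4 were higher and none lower in mature leaf (0 also at an unadjusted p of 0.05, limma). The absence of lower members depended on the fit: the 18 leaf arrays alone gave 3 lower, and an additive model of stage and genotype gave 2. The sum of 13 root markers rose from 5527 to 7140 on young arrays to 26590 to 32290 on mature arrays. Without NAAT1, described below, that sum was 5258 to 6879 and 4834 to 7057. Of the 13 root markers, 9 had means under 5 in young leaf and 8 in mature leaf. Among these, the silicon exporter Lsi2 stayed at 2.49 and 2.45 in leaves against 13.15 in young root. Other root markers lay well above background in leaves. The silicon channel Lsi1 had means of 10.29 in young and 9.71 in mature leaf, against 14.53 in young root and 9.95 in mature root. SRH2 was at 8.77 and 7.98 in leaves, against 10.44 and 9.71 in roots. Of 10 apex markers, 4 had means under 5 in each stage. The meristem genes OSH1 and OSH71, given after their values were seen, lay under 2.5 on all 18 arrays. Other apex markers were high: FON1 was at 9.4 to 10.89 in young and 8.59 to 10.12 in mature leaf. LOG was at 11.45 to 11.81 and 12.3 to 12.64. The sum of the 10 apex markers was 22660 to 41770 in young and 31850 to 37150 in mature leaf. Of the root markers 3 were higher and 4 lower, and of the apex markers 2 were higher and 4 lower.

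Young leaf of the R line stood apart as a group. Its 3 arrays had spike-in control levels of 12.3 to 13.1, against 10.6 to 12.2 in the other young leaf arrays and 11.1 to 12.5 in mature leaf, and they resembled each other less (mean correlation 0.977 to 0.981 across probe sets, against 0.988 to 0.995 in the other leaf groups). Its leaf photosynthesis markers summed to 183600 to 206900, the lowest of the 6 leaf groups. Where leaving out the R line ends a call or moves a value by over 1.5 times, the value without it or the value of each genotype is given. With the spike-in level of each array as a covariate, 8017 probe sets were higher and 7726 lower in mature leaf, 9712 depended on genotype and 17283 differed between leaf and root, against 8063, 7789, 13302 and 19003 without it.

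Another 3 young leaf arrays, hybrid replicate 1 and B line replicates 2 and 3, shared high levels of several stress-responsive genes. The jasmonate-induced repressor JAZ10 was at 12.71 to 13.72 on them and at 9.28 to 9.73 on the other 6 young arrays, and EL2, a cell cycle inhibitor induced by elicitors, was at 12.28 to 12.41 against 8.25 to 9.47. DREB1B and CBF3, factors of cold and drought responses, and ABA8OX1, which breaks abscisic acid down, were high on the same arrays. A fit without these 3 arrays, added after their values were seen, left 7659 probe sets higher and 7244 lower. It leaves the young B line with a single array, which is then assumed to vary like the other groups.

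Of 24130 probe sets with a mean of at least 5 in some group of the series, 8063 (33.4%) were higher in mature leaf and 7789 (32.3%) were lower at an adjusted p of 0.05 in limma. With calls this frequent, the size of the difference is given beside them, and the overlap of the arrays for some of the genes and lists. Where nothing is said of overlap, the arrays of the 2 stages may overlap, as they did for XTH8, EXPB3 and PAL06. All 9 mature arrays lay above all 9 young arrays for 2631 probe sets (10.9%), and below them for 1635 (6.78%). Where a count of list members stands without a share below, it is to be read beside these shares. A difference of 3 or more log2 units was found for 412 higher and 337 lower probe sets, with means under 5, which lie near background, set to 5. Of all calls, 1994 (12.6%) had both stage means under 5, and no order is read from those. They are kept in the counts of gene lists, as they are in the shares over all probe sets. They made up 6 calls each of the auxin and cell cycle lists, 5 each of the metal and expansin lists, 4 each of the jasmonate, tubulin and kinesin, and developmental regulator lists, and 3 each of the root marker, cellulose, diterpenoid, heat shock and nitrogen lists. The lignin, dehydration and potassium lists held 2 each, the apex and floral markers and the flowering, redox, gibberellin, aquaporin and fermentation lists 1 each, and the other lists 0. In bulk tissue, fewer cells of a type and less RNA per cell cannot be told apart.

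Among genes with a descriptive name, the 15 leading rises included metal genes (ZIP8, NAAT1, ZIP5 and ZIP4) and the water channels PIP1-3 and TIP1. They also held the flowering genes MADS18 and MADS55, the small heat shock proteins HSP18.6 and HSP16.0, and single genes of starch synthesis (SS1) and cytokinin breakdown (CKX4). The 15 leading falls were of many kinds. They included the redox genes GRXC10, CAT-A and SODCC.2, and single genes for a laccase (LAC7), a germin-like protein (GER5) and a protease inhibitor (RBBI3.3). The 15 leading genes in each direction moved the same way in all 3 genotypes with no overlap of arrays, as the rule for naming them required. The 30 calls held under every alternative processing, the fit without the R line included.

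**Figure D1:**
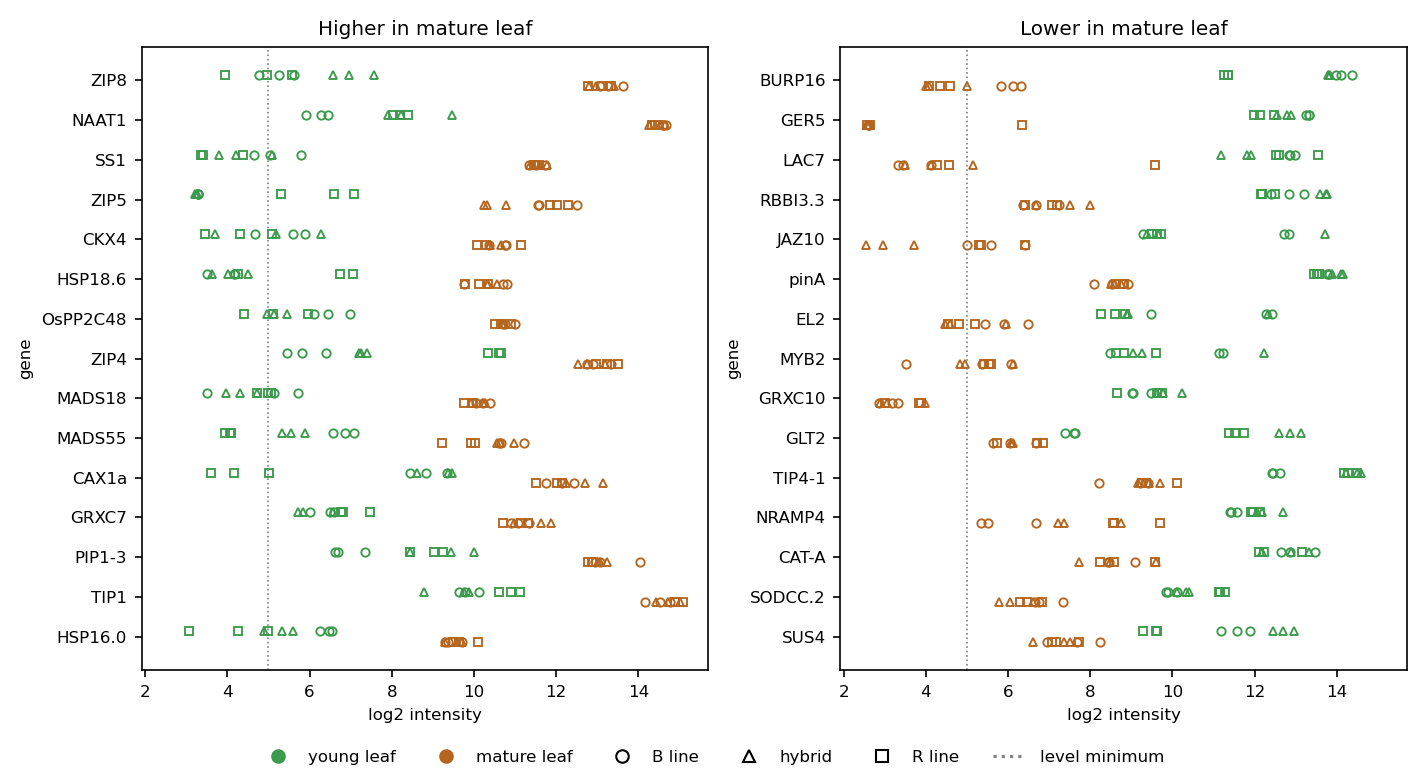
Log2 intensity (x axis) of the 30 named genes with the largest difference between stages, 1 row per gene; each point is 1 array, coloured by stage with 9 young and 9 mature arrays. The 2 stages do not overlap in any row, from ZIP8 (higher in mature leaf by 7.46) to BURP16 (lower by at least 8.09).

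The metal genes gave the widest rises. ZIP8, a member of the ZIP family of zinc and iron transporters, ranged from 3.95 to 7.58 on the young arrays (median 5.57) and from 12.77 to 13.63 on the mature arrays (median 13.11). Every mature array thus stood more than 5 log2 units above every young one, and the mean difference was 7.46 ± 0.28 (SE), or 176-fold (adjusted p = 6.36e-22, limma). ZIP5 of the same family was near background on most young arrays (3.21 to 7.07, median 3.28) and at 10.24 to 12.52 on mature arrays (median 11.58), a rise of at least 88.0-fold (adjusted p = 7.31e-17, limma). ZIP4 rose from 5.44 to 10.67 (median 7.26) to 12.53 to 13.51 (median 12.97), by 5.12 ± 0.31.

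The ZIP4 rise was unequal among genotypes because the young levels differed: young leaf held 5.88 ± 0.48 in the B line, 7.29 ± 0.10 in the hybrid and 10.53 ± 0.18 in the R line (SD, n = 3), while the mature means spanned only 12.82 to 13.24. The differences were 7.11, 5.53 and 2.71 in that order, and they differed between genotypes (adjusted p = 5.4e-05, limma F test). NAAT1, a nicotianamine aminotransferase on the path to mugineic acids, rose from 5.92 to 9.46 (median 8.02) to 14.25 to 14.67 (median 14.53). That was 6.85 ± 0.29, or 115-fold (adjusted p = 1.37e-20, limma) with no overlap between the stages.

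The iron, zinc and copper list as a whole moved both ways. Of 43 tested from 53 members, 18 were higher (41.9%, against 33.4% over all probe sets) and 12 lower (27.9%, against 32.3%). With no overlap, 13 were higher and 5 lower, where 10.9% and 6.78% of all probe sets were. ZIP7 (5.21 to 8.23, stage means), the nicotianamine synthase NAS3 (10.77 to 12.57), the yellow stripe-like transporter YSL9 (5.67 to 8.76) and the metal tolerance transporter MTP3 (8.01 to 10.51) were among those 13. They are named here after their values were seen. In the opposite direction NRAMP4, of the NRAMP family of metal transporters, fell from 11.41 to 12.70 (median 11.96) to 5.34 to 9.69 (median 7.35), by 4.41 ± 0.20 (adjusted p = 1.15e-19, limma). The copper-transporting ATPase HMA4 had stage means of 7.95 and 5.80, also without overlap.

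**Figure D2:**
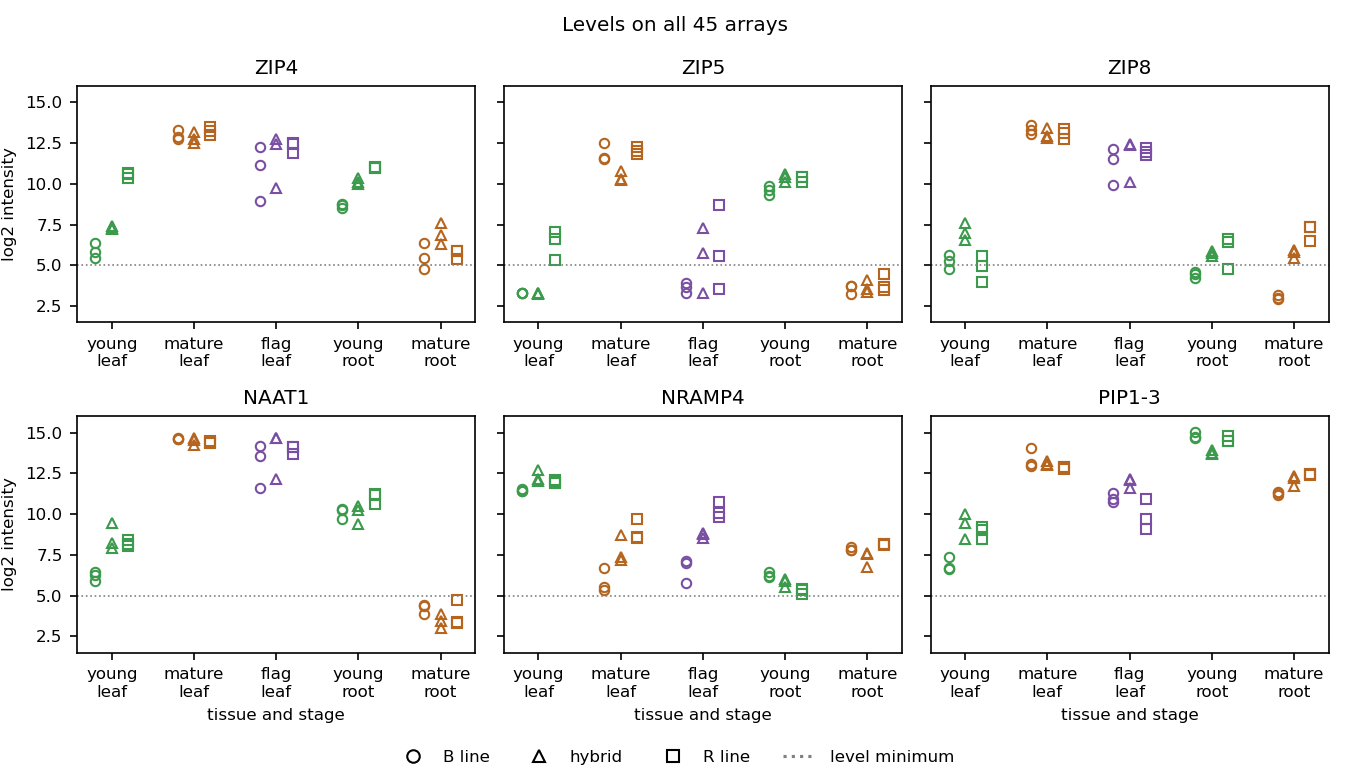
Log2 intensity (y axis) of 5 metal genes and the aquaporin PIP1-3 on all 45 arrays, grouped by tissue and stage. Colour shows the stage and marker shape the genotype, and each point is 1 array. Mature leaf holds high ZIP5 (mean 11.46) and NAAT1 (14.50), while mature root holds low levels of both (3.71 and 3.83).

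Aquaporins, the channels that pass water through membranes, were higher in 12 and lower in 4 of 20 cases, with 9 and 3 free of overlap. The counts of calls were the same without the R line. PIP1-3, of the plasma membrane type, went from 6.63 to 9.99 (median 8.45) to 12.77 to 14.03 (median 13.02), by 4.74 ± 0.19. TIP1, of the vacuolar membrane type, rose by 4.66 ± 0.17 from a young median of 9.88 to a mature median of 14.78. TIP4-1, another vacuolar channel, went the other way, from 12.42 to 14.58 (median 14.22) to 8.22 to 10.10 (median 9.36), a fall of 4.43 ± 0.13. The plasma membrane gene PIP1-1 rose by 2.33 ± 0.16.

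Among ion transporters, 10 of 30 genes for potassium, sodium and calcium transport were higher (33.3%) and 18 lower (60.0%). Over all probe sets the shares were 33.4% and 32.3%. CAX1a, a vacuolar exchanger of calcium for protons, rose by 4.81 ± 0.21, with differences of 3.24 in the B line, 3.54 in the hybrid and at least 6.89 in the R line. The potassium transporters HAK27 and HAK1 differed in direction, HAK27 rising by 3.87 ± 0.26 and HAK1 falling by 2.71 ± 0.28 with overlapping arrays. The calcium ATPase ACA5 rose by 2.63 ± 0.15. Of 15 phosphate genes 5 were higher (33.3%) and 4 lower (26.7%), near the shares over all probe sets. SPX2, a phosphate-sensing regulator, rose by 2.59 and the exporter-family gene PHO1-3 by 2.29 (1.4 without the R line), while SPX4 fell by at least 2.02 and the transporter PHT1-8 fell by 3.14. Of 3 silicon transport genes, the channel Lsi1 alone was called (lower, −0.59 ± 0.15).

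Nitrogen genes split 4 higher and 6 lower of 16 (2 and 5 without the 3 young arrays that stood apart). The cytosolic glutamine synthetase GLN1-1 rose by 2.67 ± 0.23, from a young median of 9.63 to a mature median of 12.16. GLT2, a glutamate synthase, fell by 4.44 ± 0.24, with mature means of 6.10 to 6.43 in the 3 genotypes against young means of 7.55 in the B line, 12.87 in the hybrid and 11.55 in the R line. The ammonium transporter AMT2-1 and the glutamate dehydrogenase GDH2 fell by 2.37 ± 0.13 and 2.18 ± 0.16.

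Photosynthesis genes rose moderately or were not called. Of 8 light-harvesting and photosystem genes 3 were higher and none lower in limma (0 lower also at an unadjusted p of 0.05), with a median difference of 0.17. Quantile normalization left 1 higher, and a fit of the 18 leaf arrays alone called 3 lower. PSAG, a photosystem I subunit, rose by 2.48 ± 0.15, but by 0.76 in the B line, 1.95 in the hybrid and 4.73 in the R line. The ferredoxin-NADP reductase LFNR1 rose by 0.57 ± 0.12 and the chlorophyll-binding protein RCABP69 by 0.29 ± 0.12, but neither call held after quantile normalization (adjusted p = 0.0852 and 0.142, limma). Without the R line RCABP69 was not called either (0.15). GLK1, a regulator of chloroplast development, rose by 1.17 ± 0.12 on average, with 0.36 in the B line, 0.25 in the hybrid and 2.91 in the R line.

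In the Calvin cycle and photorespiration list, 5 of 9 were higher and none lower, with or without the R line (0 lower also at an unadjusted p of 0.05). The higher share was 55.6%, against 33.4% over all probe sets. ALDP, a chloroplast aldolase, rose from 10.72 to 14.80 (median 13.80) to 15.36 to 15.68 (median 15.45), by 2.30 ± 0.17. Its rise was 1.12, 1.71 and 4.06 in the B line, hybrid and R line. The fructose bisphosphatase FBPase rose by 0.89 ± 0.12 (0.55 after quantile normalization) and the glycine decarboxylase H protein GDCSH by 0.71 ± 0.19, the second not past the threshold after quantile normalization (0.39, adjusted p = 0.0541, limma).

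Chlorophyll synthesis genes were higher in 7 and lower in 3 of 12 cases (5 and 3 without the R line). CHLH, a magnesium chelatase subunit, rose by 1.88 ± 0.23, GluTR, the first committed enzyme of the pathway, by 1.40 ± 0.11, and ALADH, an aminolevulinate dehydratase, by 1.74 ± 0.17. In all 3 the B line changed least: 0.30, 0.08 and 0.03, against 1.70 to 3.29 in the other genotypes. Of 6 genes of chlorophyll breakdown and senescence, 4 were higher and 2 lower (1 and 2 without the R line). RCCR1, a red chlorophyll catabolite reductase, fell by 2.93 ± 0.13 and NOL, a chlorophyll b reductase, by 1.25 ± 0.14, both without overlap. The NAC factor NAC071 rose by 2.37 ± 0.19. The stay-green gene SGR differed by 0.83 ± 0.32, a call that was lost without the R line (0.38, adjusted p = 0.312, limma).

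Starch synthesis held 1 of the largest single changes. The starch synthase SS1 lay between 3.37 and 5.80 on young arrays (median 4.38) and between 11.35 and 11.79 on mature arrays (median 11.51). Young levels were near background and mature levels close together, so the rise was at least 93.1-fold (adjusted p = 1.6e-27, limma). The synthase SS2 rose by 2.52 ± 0.22 (1.65 without the R line), the branching enzyme Sbe1 by 1.56 ± 0.11, and AGPS2, a subunit of the ADP-glucose pyrophosphorylase, by 1.62 ± 0.23. Those 4 were the higher members of 10 tested, against 1 lower.

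Of 32 sugar genes 16 were higher (50%) and 13 lower (40.6%), where 65.7% of all probe sets were called in either direction. In 8 and 3 cases the stages did not overlap. OsSPS2, a sucrose phosphate synthase on the path of sucrose export, rose from 6.64 to 9.78 (median 7.80) to 11.07 to 11.59 (median 11.48), by 3.29 ± 0.12. SUS4, a sucrose synthase, an enzyme that cleaves imported sucrose, fell from 9.29 to 12.96 (median 11.56) to 6.61 to 8.23 (median 7.37), by 3.88 ± 0.17. Within the SWEET family of sugar transporters, SWEET2A fell by at least 3.76 and SWEET2B rose by 3.82 ± 0.15, the second in the hybrid and R line but not the B line (below).

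Carotenoid and flavonoid genes were higher in 6 of 7 cases and lower in none (0 also at an unadjusted p of 0.05). All 3 phytoene synthases, which open carotenoid synthesis, were among them: PSY3 rose by 3.23 ± 0.28, PSY2 by 2.76 ± 0.13 and PSY1 by 1.37 ± 0.13. The rises of PSY3 in the B line, hybrid and R line were 2.68, 3.55 and 3.46 and did not pass the F test (adjusted p = 0.501, limma), whereas PSY1 differed by 0.00, 2.33 and 1.78 (adjusted p = 5.42e-07, limma). The chalcone synthase gene CHS rose by 1.37 ± 0.46, a call lost after quantile normalization (adjusted p = 0.0515, limma) and without the R line (adjusted p = 0.0585).

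Flowering regulators were higher in 13 and lower in 9 of 27 cases. The 9 members with no overlap between stages were all higher, against 10.9% upwards and 6.78% downwards over all probe sets. MADS18, a MADS-box gene of the clade that holds AP1 of Arabidopsis, went from 3.50 to 5.73 (median 4.71) to 9.75 to 10.39 (median 10.05), a rise of at least 33.8-fold (adjusted p = 2.75e-23, limma). MADS55, of the clade that holds SVP of Arabidopsis, rose from 3.94 to 7.07 (median 5.55) to 9.22 to 11.21 (median 10.62), by 4.94 ± 0.15.

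MADS50, the rice counterpart of the flowering activator SOC1, rose by 3.05 ± 0.24 from a young median of 5.62 to a mature median of 8.34. Ehd3, an activator of the floral pathway, rose by at least 2.21. MADS14, close to MADS18 in sequence, was near background in both stages (2.72 and 2.71), as it was in young root (2.67), whereas its mature root mean was 7.80; it is given here after its values were seen. Of 8 tested markers of floral organs, 2 were higher and 4 lower. The C-class gene MADS3 stayed at 2.96 and 2.94 in the B line and reached mature means of 6.38 ± 0.80 in the hybrid and 7.74 ± 0.29 in the R line.

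In the wider set of homeodomain, MADS and other developmental regulators, 25 of 70 were higher and 20 lower, close to the shares over all probe sets. The homeodomain-leucine zipper gene Hox22 rose by 3.33 ± 0.24 without overlap. Among light receptors and light signalling genes 4 of 7 were higher and 2 lower. The phototropins, blue-light receptors, went apart: PHOT1A fell by 2.38 ± 0.12 and PHOT2 rose by 1.08 ± 0.11. PhyB, a red-light receptor, rose by 0.58 ± 0.09.

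Abscisic acid genes, which act in drought responses and stomatal closure, were higher in 15 of 23 cases and lower in 3 (16 and 3 without the R line), against 33.4% and 32.3% over all probe sets. The leading members were ABIL1 (3.72 ± 0.14) and OsPP2C09 (3.35 ± 0.11), both protein phosphatases of type 2C, several of which hold abscisic acid signalling in check. OsPP2C48, a further phosphatase of that type but not a member of this list, was 5.12 ± 0.17 higher, from a young median of 5.44 to a mature median of 10.71. ABA8OX1 fell by 3.04 ± 0.52 with overlapping arrays, and by 1.5 without the 3 young arrays on which it stood high.

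Cytokinin genes were higher in 14 of 27 cases (51.9%) and lower in 8 (29.6%). CKX4, a cytokinin oxidase, which degrades the hormone, was at 3.45 to 6.27 on young arrays (median 5.08) and at 10.08 to 11.14 on mature arrays (median 10.38), at least 46.2-fold higher (adjusted p = 9.75e-22, limma). A further oxidase, CKX11, rose by 3.98 ± 0.23, and the response regulator RR4 by 1.5 ± 0.15. The cytokinin-activating enzyme gene LOGL7 rose by 2.30 ± 0.19, but by 1.04 without the R line (adjusted p = 0.00156, limma), whose young mean of 3.24 was near background. Rises in both oxidases were seen in all 3 genotypes, and CKX11 rose by 6.45 in the R line against 2.59 and 2.89 in the others.

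Jasmonate genes were lower in 19 of 33 cases (57.6%, against 32.3% over all probe sets) and higher in 7 (21.2%, against 33.4%), and their median difference with means at 5 was 0.00. The counts were 20 and 5 without the R line and 17 and 6 without the 3 young arrays that stood apart. JAZ10 fell from 9.28 to 13.72 (median 9.66) to 2.54 to 6.40 (median 5.29), by at least 52.7-fold (adjusted p = 2.69e-10, limma). The fitted fall was 5.91 with the 3 arrays that held it highest and 4.67 without them. JAZ8, JAZ13 and TIFY11A of the same repressor family were the other members wholly lower in mature leaf (JAZ8 stage means 7.09 and 3.02), named after their values were seen. JAZ12 fell by at least 4.17 and the lipoxygenase CM-LOX1 by at least 4.78, both with overlapping arrays. OPR1, an oxophytodienoate reductase, rose by at least 4.04, from a young median of 4.54 to a mature median of 8.99.

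The other hormone lists were mixed. Auxin genes were higher in 15 (30%) and lower in 23 (46.0%) of 50 cases, with a median difference of 0.00 with means at 5: the repressors IAA21, IAA6 and IAA1 fell by 2.57 ± 0.19, 2.12 ± 0.12 and 2.03 ± 0.11, and the PIN-family transporter PIN5A rose by 2.49 ± 0.18. Gibberellin genes were higher in 2 and lower in 4 of 8 cases. Within synthesis, CYP88A5, an ent-kaurenoic acid oxidase, fell by at least 2.39 and GA20OX2, a gibberellin 20-oxidase, rose by 2.35 ± 0.22.

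Of 8 ethylene genes 2 were higher and 4 lower, and none of the 4 overlapped between stages. Over all probe sets 32.3% were lower, and 6.78% lower without overlap. The receptor ETR2 fell by 2.43 ± 0.12 and the signalling protein EIN2 by 1.44 ± 0.08. Of 9 brassinosteroid genes 2 were higher and 3 lower (2 and 5 without the R line). CYP85A1, which acts late in brassinosteroid synthesis, rose by 3.47 ± 0.21, and the transcription factor BZR1 fell by at least 0.85, by at least 2.58 in the B line and 1.27 in the hybrid, while both R line means lay under 5.

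Lignin and phenylpropanoid genes were lower in 16 of 26 cases (61.5%) and higher in 5 (19.2%), with a median difference of −0.73 with means at 5. LAC7, a laccase, an enzyme that polymerises lignin, fell from 11.18 to 13.55 (median 12.59) to 3.31 to 9.57 (median 4.13), at least 177-fold (adjusted p = 1.33e-17, limma). The mature arrays were uneven: R line replicate 3 held 9.57 and the others at most 5.14, yet all stood below every young array. The phenylalanine ammonia lyase PAL06 fell by 3.61 ± 0.30, whereas the ligase 4CL2 rose by 4.18 ± 0.20 and the dehydrogenase CAD3 by 3.46 ± 0.12, from a young median of 10.44 to a mature median of 14.34.

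Genes that build or loosen walls were more often lower than higher. Of 36 expansins and wall-loosening genes 16 were lower and 3 higher (12 and 1 without the R line), although the median difference was 0.00 with near-background means set to 5. EXPB4, a beta-expansin, fell by at least 3.39, EXPB3 by 2.04 ± 0.31, the xyloglucan endotransglucosylase XTH8 by 3.27 ± 0.27 and the expansin-like EXLA1 by 1.59 ± 0.11. In the list of cellulose synthase and related genes, 14 were lower and 5 higher of 32 (15 and 3 without the R line). The synthase-like genes CSLC1 and CSLC2 fell by 1.75 ± 0.13 and 2.26 ± 0.23, and CSLH1 rose by 2.53 ± 0.33. OsGT47D, a glycosyltransferase of another family on this list, fell by at least 1.90.

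BURP16, a BURP-domain protein, showed the largest named fall. Young arrays held 11.25 to 14.36 (median 13.82) and mature arrays 4.0 to 6.31 (median 4.59), at least 272-fold less (adjusted p = 1.12e-26, limma). GER5, a germin-like protein, fell from 11.98 to 13.33 (median 12.78) to 2.56 to 6.34 (median 2.61), at least 214-fold (adjusted p = 8.62e-18, limma). Mature R line replicate 3 again held the highest value, and the other 8 mature arrays lay between 2.56 and 2.64. Also among the 15 leading falls were pinA, by 5.16 ± 0.10, and the MYB factor MYB2, by 4.56 ± 0.35 (3.61 without the 3 young arrays that stood apart).

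Cell division genes did not move as a block. Of 66 cell cycle and DNA replication genes 22 were lower and 11 higher (23 and 7 without the R line), so the lower share is near the 32.3% of all probe sets and the higher share is below 33.4%. The cyclin-dependent kinase inhibitor KRP6 fell by at least 2.87, and the cyclin genes CYCP3-1 and CYCD4-2 fell by at least 1.72 and rose by at least 2.14, respectively. The replication factor gene RFC3 rose by 1.40 ± 0.12 as the mean of the genotypes, but by 0.56 without the R line. The rise was 3.09 in the R line and 0.15 in the hybrid. B line arrays held 6.84 to 7.48 in young and 8.02 to 8.34 in mature leaf. EL2 fell by 4.73 ± 0.35, and by 3.72 without the 3 young arrays on which it stood high.

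Of 6 histone genes 2 were higher and 2 lower: H2B.11 fell by 0.95 ± 0.09 and H2B.5 rose by 0.53 ± 0.09 (0.18 and not past the threshold after quantile normalization). Tubulin and kinesin genes were higher in 9 (22.5%) and lower in 10 (25%) of 40 cases, both shares below those of all probe sets. They were led by a fall of 1.71 ± 0.17 in the beta-tubulin TUB5 and a rise of 1.35 ± 0.10 in the kinesin KIN14L. Ribosomal protein genes were higher in 5 and lower in 7 of 24 cases, but 2 and 14 after quantile normalization, so their balance depends on the scaling. RPL18 fell by 2.54 ± 0.22 and RPS21 by 0.64 ± 0.07.

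**Figure D3:**
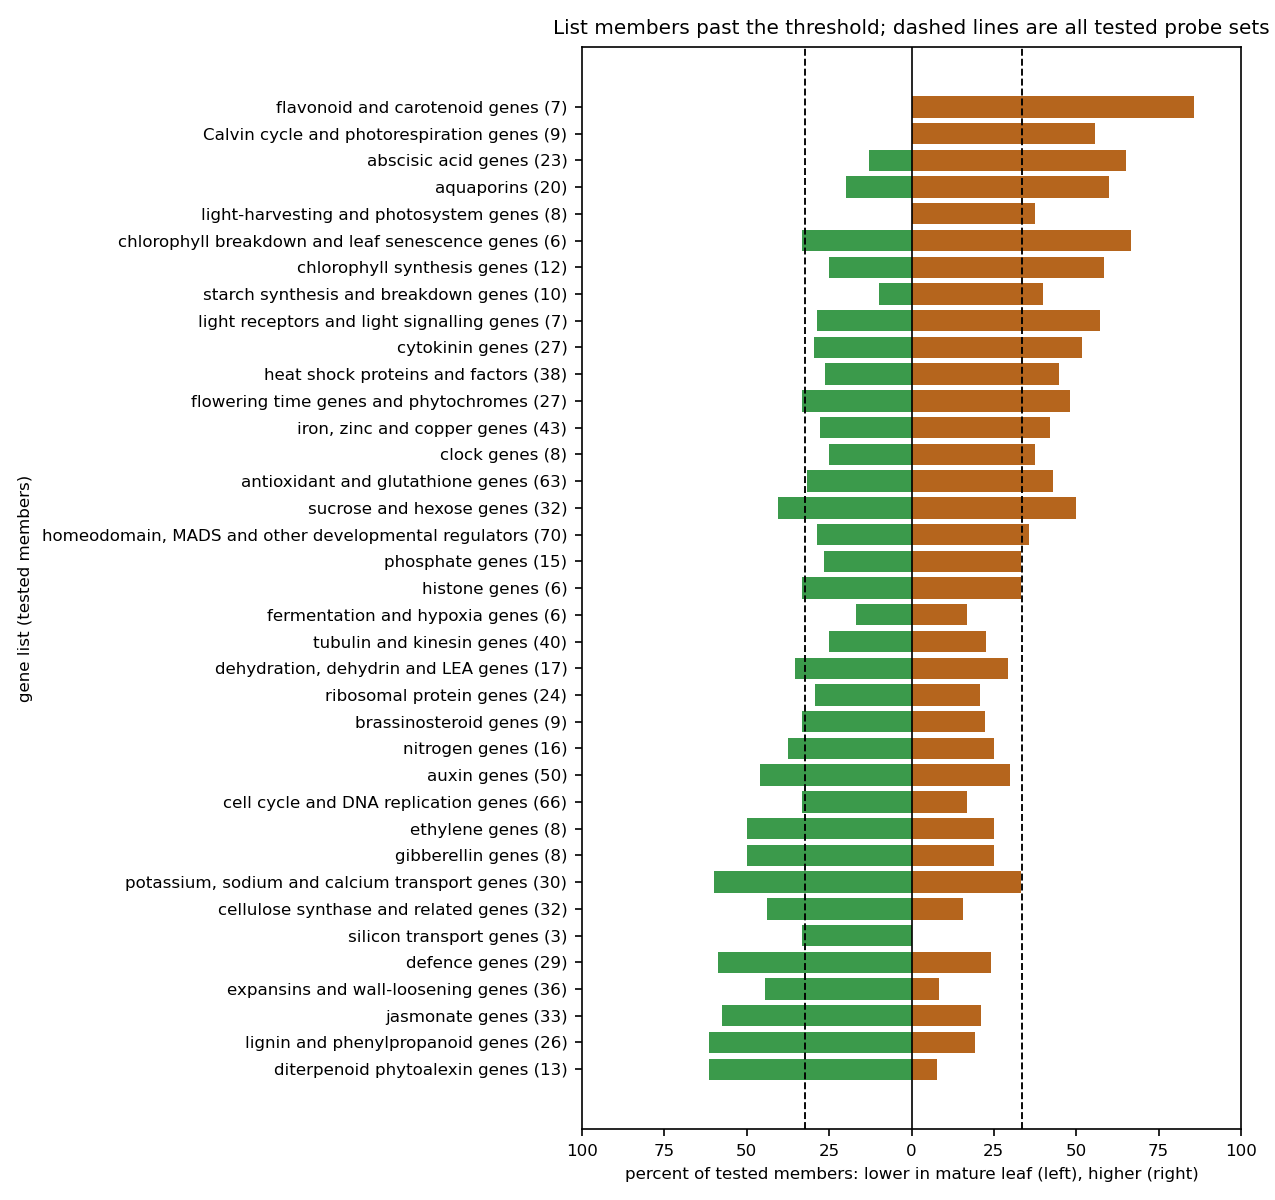
Share of tested members of each gene list (x axis, percent) that were higher (right) or lower (left) in mature leaf in limma, with the shares over all 24130 tested probe sets as dashed lines at 33.4% and 32.3%. Flavonoid and carotenoid genes reach furthest to the right (85.7% higher). Chlorophyll breakdown genes follow at 66.7%, abscisic acid genes at 65.2% and aquaporins at 60.0%. Lignin and diterpenoid genes reach furthest to the left (61.5% lower each). Potassium, sodium and calcium genes follow at 60.0%, defence genes at 58.6% and jasmonate genes at 57.6%.

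Defence genes were lower in 17 of 29 cases (58.6%) and higher in 7 (24.1%) (14 and 5 without the R line, 14 and 7 without the 3 young arrays that stood apart). RBBI3.3, a protease inhibitor of the Bowman-Birk type, fell from 12.16 to 13.77 (median 12.84) to 6.36 to 7.99 (median 7.08), by 5.91 ± 0.25. The falls in the B line, hybrid and R line were 6.05, 6.30 and 5.39 and did not pass the F test for genotype (adjusted p = 0.404, limma). Pi21 fell by 2.35 ± 0.51, NH4 by 2.24 ± 0.18 and the lipid transfer protein LTP2-B by 2.21 ± 0.68, all without overlap. Genes of the diterpenoid phytoalexins, antimicrobial compounds of rice, were lower in 8 and higher in 1 of 13 cases (6 and 2 without those 3 arrays), and their median difference with means at 5 was −0.22. CYP71Z7 fell by 2.70 ± 0.48, though by 5.94 in the hybrid and by 1.04 and 1.13 in the parents, and CYP71Z6 rose by 1.88 ± 0.46.

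Heat shock proteins and factors were higher in 17 (44.7%) and lower in 10 (26.3%) of 38 cases, against 33.4% and 32.3% over all probe sets. In 12 cases they were higher without overlap, against 10.9%, and the median difference with means at 5 was 0.00. Among the small heat shock proteins, which hold unfolded proteins in solution, HSP18.6 rose by at least 39.7-fold, from 3.51 to 7.05 (median 4.18) to 9.75 to 10.80 (median 10.33), and HSP16.0 rose by 4.32 ± 0.21. The heat shock factor HSFB2A rose by 2.84 ± 0.17, and HSFC1B fell by 2.33 ± 0.16 on average, with falls of at least 2.71 in the hybrid and 4.78 in the R line and a B line young mean under 5.

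Dehydration genes were higher in 5 and lower in 6 of 17 cases (5 and 4 without the 3 young arrays that stood apart). The dehydrin Dhn1 rose by 3.47 ± 0.23, while CBF3 fell by 3.72 ± 0.49 and DREB1B by at least 3.15. Without those 3 arrays the fitted fall of CBF3 was 2.74 (adjusted p = 1.25e-05, limma), and DREB1B ranged over all young arrays from 3.85 to 11.54. Of 6 fermentation and hypoxia genes the pyruvate decarboxylase PDC2 was higher (0.52 ± 0.16), and 1 other gene was called lower between means under 5.

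Of 63 redox genes 27 were higher (42.9%) and 20 lower (31.7%, near the 32.3% of all probe sets), with 12 and 9 free of overlap. The CC-type glutaredoxins GRXC7 and GRXC10 went opposite ways: GRXC7 rose by 4.75 ± 0.17 from a young median of 6.58 to a mature median of 11.14, and GRXC10 fell by at least 4.47 from 9.62 to 3.18. CAT-A, a catalase, fell from 12.10 to 13.47 (median 12.87) to 7.73 to 9.59 (median 8.49), by 4.08 ± 0.35. The copper and zinc superoxide dismutase SODCC.2 fell by 3.95 ± 0.20, and 2 more of that kind, sodCp and SodCc1, had lower mature means (12.56 to 10.35, and 12.27 to 10.93), again without overlap and named after their values were seen. The metallothionein MT1B fell by 4.22 ± 0.33 with overlapping arrays. Its mature B line arrays held 5.51 to 9.46, those of the hybrid and R line 4.13 to 5.15, and young arrays 7.94 to 11.17.

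Some genes barely moved. BIPP2C1 was at 14.72 to 15.12 in young and 14.75 to 14.98 in mature leaf (−0.07 ± 0.12), and DAGAT, aoc, G6PGH1 and GRXS10 differed by −0.11, 0.01, −0.01 and 0.01 with SEs of 0.07 to 0.12. They were chosen for the smallest difference in every genotype, so the values are descriptions and were not tested as evidence of equality. Quantile normalization moved aoc to −0.23, GRXS10 to −0.25 and DAGAT to −0.24, all 3 then past the threshold.

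The difference between the stages depended on genotype for 13302 probe sets (55.1%) by the limma F test, and for 7243 when the R line was left out and the hybrid was set against the B line alone. By genotype, 5925 (24.6%) were higher and 5163 (21.4%) lower in the B line, 5207 (21.6%) and 7528 (31.2%) in the hybrid, and 8518 (35.3%) and 5382 (22.3%) in the R line. In all 3 genotypes separately, 3101 were called higher and 2153 lower, while 1980 were called in opposite directions in some pair of genotypes. Of the pairs, the hybrid and R line differed in 9868 probe sets (40.9%), the R and B lines in 8953 (37.1%) and the hybrid and B line in 6923 (28.7%).

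Of 8 clock genes, which time daily rhythms in leaves, 7 passed the F test, against 55.1% of all probe sets. PCL1, an evening gene of the clock, had young leaf means of 6.18 ± 0.46 in the B line, 11.17 ± 0.25 in the hybrid and 14.41 ± 0.11 in the R line (SD, n = 3). In mature leaf the means were 6.24 ± 0.41, 6.35 ± 0.59 and 6.37 ± 0.15, so the genotypes parted in young leaf and met in mature leaf. The difference between stages was 0.06 ± 0.29, −4.82 ± 0.29 and −8.04 ± 0.29 (F test adjusted p = 1.63e-16, limma).

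CCA1, a morning gene of the clock, followed the opposite order. Its young means were 11.97 ± 0.19, 9.38 ± 0.24 and 7.46 ± 0.29 in the B line, hybrid and R line, and its mature means were 13.37 to 13.53. PRR1, also called TOC1 in Arabidopsis, rose by 1.59 in the B line and fell by 1.62 in the hybrid and 1.59 in the R line. PRR95 rose by 1.29 and 1.37 in the parents and fell by 0.55 in the hybrid. Over both stages 3 of 8 clock genes were called higher and 2 lower (2 and 1 without the R line). How far the time of harvest bears on these and on the other differences between genotypes was not tested.

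The 6 genes whose stage difference varied most between genotypes were BBD1, BURP2, PCL1, SWEET2B, SAPK9 and GLT2, and for 5 of them it was the young leaf that varied. SWEET2B had young means of 11.15 ± 0.39, 6.38 ± 0.42 and 4.32 ± 0.37 in the B line, hybrid and R line and mature means of 11.03 to 11.21. SAPK9, a kinase of abscisic acid signalling, had young means of 4.51 ± 0.12, 9.40 ± 0.21 and 11.23 ± 0.22 and mature means of 5.59 to 5.78. In both genes the hybrid lay between its parents in young leaf, as it did for PCL1 and CCA1.

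BBD1, a nuclease, was near background in young B line leaf (4.33 ± 0.01) and high in the hybrid (12.67 ± 0.27) and R line (13.31 ± 0.27), against mature means of 6.32 to 7.45. BURP2 was the exception, since its mature leaf varied: 7.47 ± 0.54 in the B line against 14.38 ± 0.14 in the hybrid and 14.51 ± 0.09 in the R line, while young means ran from 11.92 to 14.62. Its difference was −5.73 ± 0.81 in the B line, 2.46 ± 0.81 in the hybrid and −0.11 ± 0.81 in the R line.

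**Figure D4:**
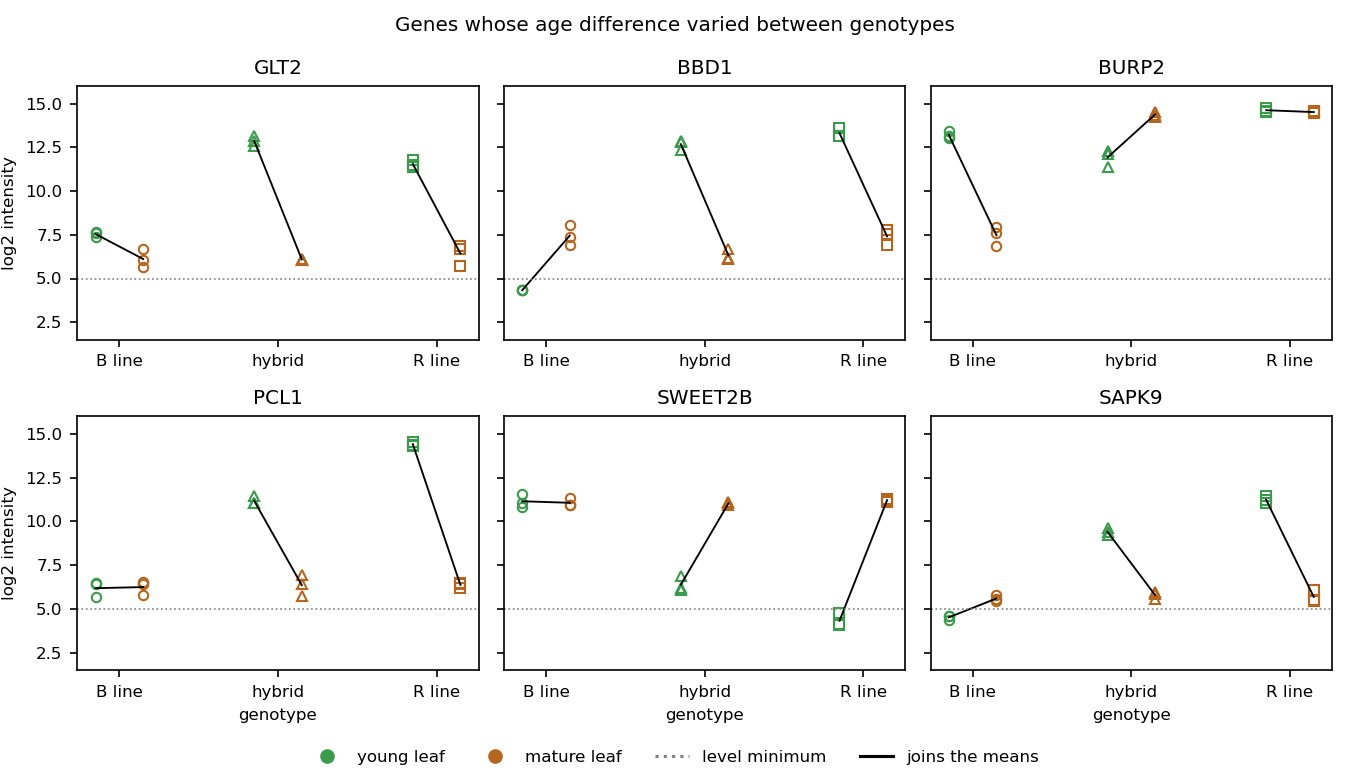
Log2 intensity (y axis) of the 6 genes whose stage difference varied most between genotypes, by genotype, with young and mature leaf side by side; points are arrays (3 per group) and lines join the group means. For PCL1 the young means run from 6.18 to 14.41 and the mature means from 6.24 to 6.37.

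The stage difference in leaf was set against that in roots of the same ages. The stage difference in leaf exceeded that in root for 11083 probe sets (45.9%) and fell short of it for 7920 (32.8%) by the interaction test in limma. In root itself 7540 (31.2%) were higher and 11075 (45.9%) lower. Of the probe sets higher in mature leaf 27.6% were also higher in mature root (29.5% of the root's), and of those lower in leaf 48.4% were also lower in root (34% of the root's).

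The metal genes NAAT1, ZIP5 and ZIP4 took opposite courses in the 2 organs. They were named for their large leaf minus root difference, so they do not stand for the metal list as a whole. NAAT1 fell in root from 10.38 ± 0.60 to 3.83 ± 0.59 (SD, n = 9) as it rose in leaf, an interaction of at least 12.23 (adjusted p = 6.29e-25, limma). ZIP5 fell in root from 10.10 ± 0.42 to 3.71 ± 0.38 and gave an interaction of at least 11.56. ZIP4 fell from 9.94 ± 1.02 to 6.05 ± 0.84, with an interaction of 9.01 ± 0.44 (SE). ZIP8, in contrast, was at 5.37 and 5.28 in root, where its difference of −0.09 ± 0.28 was not called.

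CAB2R, a chlorophyll a/b-binding protein, also led this comparison, but through root alone: its leaf means were 15.33 and 15.15 and its root means 14.72 ± 0.69 and 3.44 ± 0.92. The summed leaf photosynthesis markers were 17200 to 90790 in young root and 80.2 to 392 in mature root. In the other direction PDC1, a pyruvate decarboxylase of fermentation, rose in root from 3.59 ± 0.82 to 14.22 ± 0.59 and lay at background in leaf (2.96 and 2.74). LAC7, peroxidase and the calmodulin-like CML15 fell in leaf and rose in root, with interactions of −9.50 with means at 5, −8.98 ± 0.33 and −8.37 ± 0.47.

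Flag leaf adds a later plant age, 90 days, in a leaf that the titles name apart, and no leaf age is given. Its difference from mature leaf uses the same mature arrays, so the levels are only set side by side. In young, mature and flag leaf the means of SS1 were 4.41, 11.54 and 11.33, those of ZIP8 5.70, 13.15 and 11.61, and those of NAAT1 7.65, 14.50 and 13.65. MADS18 went from 4.68 to 10.08 to 12.10. Other genes were not high in flag leaf: ZIP5 means were 4.28, 11.46 and 5.00 and MADS50 means 5.27, 8.32 and 5.12. BURP16, GER5 and LAC7, at 4.92, 3.02 and 4.67 in mature leaf, were at 3.16, 2.60 and 3.36 in flag leaf.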

How the data were processed

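Total RNA of each sample was hybridised to 1 Affymetrix Rice Genome Array. The authors deposited linear intensity values summarised with GCRMA, per the submitters' processing notes, which give no version. Here each deposited intensity was floored at 1 and put on the log2 scale. The table holds 57381 probe sets. Control probe sets and those with a mean log2 under 5 in all 15 groups were left out, leaving 24130. The fit, by limma 3.58.1 under R 4.3.3, gave each group its mean and used the 45 arrays together (two-sided moderated tests, Benjamini-Hochberg over all 24130, threshold 0.05). The stage difference is the mean of the 3 genotypes' differences. Its dependence on genotype was tested by F, and leaf against root by interaction. On simulated data for the stage comparison, with 24130 probe sets, 91 of 100 changes of 1 log2 unit were recovered, with 21 false calls. The simulated noise was independent between probe sets, few of them were changed and no shift was shared by an array. The false calls therefore do not give the rate in these data.

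Stage means under 5 are near background, so differences from them are given as "at least", with the mean set to 5, and no gene was named for a call with both under 5. Named genes are probe sets with a single gene and a descriptive symbol in the platform annotation or RefSeq synonyms, without cross-hybridising suffix, highest mean per gene. Named were the 15 largest differences each way with no overlap and 1 sign in all genotypes, up to 4 called members of each of 41 lists, the 6 most genotype-dependent, 4 each way between leaf and root, and 5 stable genes. Gene lists and these rules were chosen with earlier results of these data known. From them 3 members were removed after values were seen: a desaturase (SSI2) and RIC2 from the starch list, and GLB from the fermentation list. Promoter sequence was not used here. The precision is set by the number of arrays. Replicate numbers did not pair young with mature samples: residual correlations were −0.061 to 0.0847. Alternatives covered normalization, the level filter, the arrays fitted, covariates, weights, a replicate block and left-out replicates. A fit without 3 young leaf arrays was added after the data were seen.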

Additional observations from a re-analysis of the deposited data

Results flagged for a closer look

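The stage difference varied between genotypes, by the limma F test, for 13302 probe sets, and between leaf and root for 19003. Among the 15 leading genes in each direction, 18 passed the genotype test. The range of their stage difference over the 3 genotypes, with means under 5 set to 5, was 4.40 log2 units for ZIP4, 3.65 for CAX1a, 2.09 for ZIP8 and 2.47 for NAAT1. It was 0.22 for SS1, 1.35 for HSP18.6, 1.72 for HSP16.0, 2.62 for PIP1-3, 1.24 for OsPP2C48, 1.13 for MADS55 and 1.41 for GRXC7. The SS1 test rests on young means that were near background in the hybrid and R line. Among falls it was 2.49 for BURP16, 0.67 for pinA, 5.34 for GLT2, 1.45 for TIP4-1, 2.57 for NRAMP4, 1.62 for SODCC.2 and 3.35 for SUS4. The widest ranges were 8.81 for BBD1, 8.19 for BURP2, 8.11 for PCL1, 6.30 for SWEET2B and 6.14 for SAPK9. Leaf minus root stage differences that passed the interaction test, with means under 5 set to 5, were 12.23 for NAAT1, 11.56 for ZIP5, 9.54 for CAB2R, 9.01 for ZIP4, −9.50 for LAC7, −9.22 for PDC1, −8.98 for peroxidase and −8.37 for CML15.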

How the results depend on the processing

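Of the counts over all probe sets, the dependence on genotype moved furthest, from 13302 to 7243 without the R line, where 1 genotype fewer is compared. Without that line 6393 probe sets were higher and 7695 lower, so the share of calls that were higher went from 50.9% to 45.4%. Leaving out the 3 young arrays that stood apart, chosen after seeing the data, gave 7659 higher, 7244 lower, 11275 that depended on genotype and 18544 that differed between leaf and root. A spike-in covariate gave 8017, 7726, 9712 and 17283 for the same counts. A replicate block gave 8054 higher and 7790 lower, and the numbers did not pair the samples. Leaving out each replicate in turn gave 7901 to 8205 higher, 7573 to 7807 lower, 12433 to 13622 that depended on genotype and 18800 to 19137 that differed between leaf and root. Of 4919 values of named genes tried, 4880 kept direction and side of the threshold, 34 were no longer past it, 3 came past it and 2 turned, the stable genes aoc (−0.23) and GRXS10 (−0.25) under quantile normalization; the cause was not tested. Of 164 named genes 148 held under every setting, and 33 of 2460 list counts moved by over 1.5 times. Signals under 5 limit what can be ordered: 1994 calls (12.6%) had both stage means there.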
